A study of Arabidopsis thaliana with 22 samples.

Results

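Leaf transcripts were compared between 2 pairs of hours that lie well inside the 2 parts of a 24 h cycle, with light for 12 h and darkness for 12 h. The 4 arrays of 16 h and 20 h were set against the 4 arrays of 4 h and 8 h, which makes 8 of the 22 arrays of the series, and the hours were those of the source names. The plants were Arabidopsis thaliana of the wild type Col-0, raised on compost in a growth room at 20 °C and harvested as leaves at growth stage 3.90. Each sample pooled 20 plants, and every hour had 2 biological replicates, called series 1 and series 2 here. No treatment, mutant or transgene separates the groups, which differ in the hour alone as far as the labels say. RNA was measured on the Affymetrix ATH1 array, on which a set of short probes reports a gene. Which of light and dark began at 0 h is not put into words by the labels. In the numbers of the series 1 titles, the 16 h and 20 h arrays carry 13 and 17, and the 4 h and 8 h arrays 1 and 5. As far as the study is known, it took 0 h as the onset of darkness, so that 16 and 20 h would lie in the light and 4 and 8 h in the night. The age tag disagrees with the source name on 4 of the 8 arrays. It reads 14 h on both 16 h arrays and 5 h on both 8 h arrays. The titles of the series 2 arrays hold an hour too, and it is that of the source name.

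In a leaf, photosynthesis in the light feeds sucrose export and the filling of chloroplasts with starch, and the starch is broken down again in the following night. A circadian clock sets many transcripts to a time of day, with GIGANTEA (GI) as a component known to be high late in the light period. Sugar status also acts on transcripts, through the SnRK1 kinase among other routes, and raises autophagy and amino acid breakdown when carbon is short. Growth hormones such as auxin act on repressors of the Aux/IAA family and on enzymes that loosen the cell wall.

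All 8 arrays had been scaled by the authors, and their median intensities lay between 38 and 41.9 units. No pair of arrays was identical. The 20 h array of replicate 2 stood apart, with an average background of 109.13 against 68.38 to 76.08 on the other 7. Without it 312 probe sets were higher at 16 and 20 h and 368 lower, against 554 and 671 with it. The drop was not particular to that array. Without 8 h replicate 1, with a background of 70.16, the counts were lower still, at 191 and 186. RNA integrity was read from actin, whose signal at the 3' end over that at the 5' end averaged 2.22 ± 0.50 at 16 and 20 h and 2.18 ± 0.66 at 4 and 8 h (SD, n = 4; exact permutation test, two-sided, p = 0.914, the smallest possible being 0.0286). It differed more between the replicate series, at 1.74 in series 1 and 2.65 in series 2. Control probe sets for Bacillus genes, which plant RNA should not light up, read at most 15.8 on these arrays (median 2.05). Differences from levels under that value depend on the pseudocount and have no order.

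In all, 554 probe sets were higher at 16 and 20 h and 671 were lower, of 22746 tested. These are 2.44% and 2.95% of all probe sets, and 5.39% together (limma, adjusted p under 0.05, replicate series as block). At least 2-fold changes were fewer, with 246 higher (1.08%) and 192 lower (0.844%). All 4 arrays of 16 and 20 h lay above all 4 of 4 and 8 h for 1297 probe sets (5.7%) and below them for 1301 (5.72%), called or not. The median difference over all probe sets was 0.04 on the log2 scale. Differences here are on the scale log2(intensity + 4), which understates the change of low transcripts. The 4 arrays of a side come from 2 hours and are not replicates of 1 condition, so the spread behind each p holds the change between the hours as well as that between the replicates. Without the replicate block 404 were higher and 445 lower. Without the 8 h and 16 h arrays, whose age tag differs from the source name, 84 were higher and 17 lower with 2 arrays a side. Leaving out 1 array gave 191 to 508 higher and 186 to 553 lower. The lowest counts were those without 8 h replicate 1, and each array other than 20 h replicate 1 moved both counts by over 1.5 times when it was left out.

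**Figure D1:**
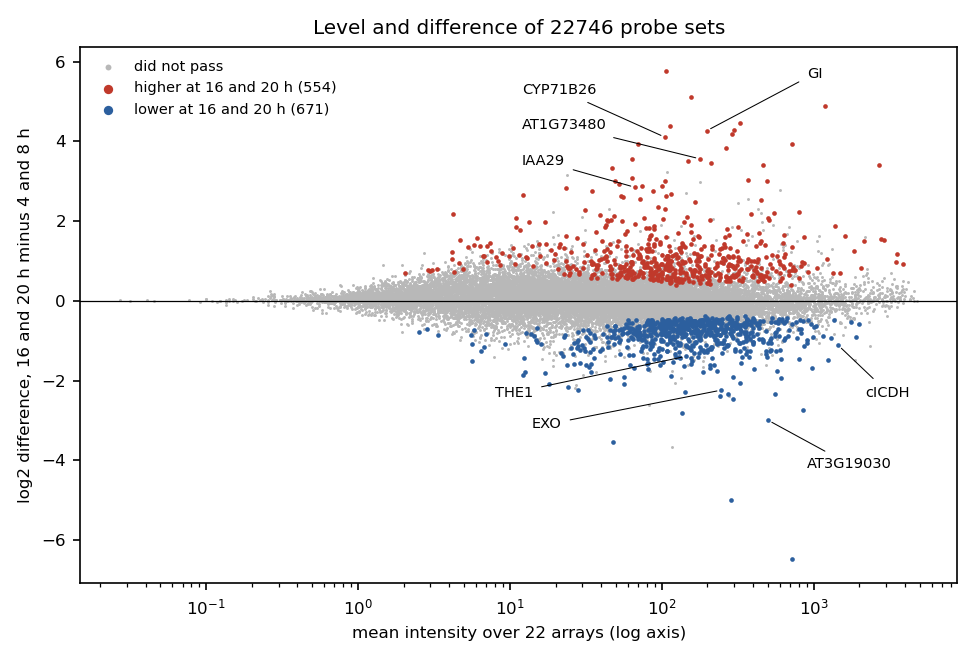
Each point is 1 of 22746 probe sets, with its mean intensity over the 22 arrays on a log axis and its log2 difference, 16 and 20 h minus 4 and 8 h. Red points (554) passed as higher and blue points (671) as lower; GI, CYP71B26 and AT1G73480 lie among the highest named genes and AT3G19030 is the lowest of the labelled ones.

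The 4 differences of largest size among those that passed belonged to probe sets without a gene name in the annotation used here. Probe set 252367_at fell, with 24.6 ± 26.4 at 16 and 20 h and 1650 ± 605 at 4 and 8 h (SD, n = 4 each). Probe set 249606_at fell as well, with 18.4 ± 4.39 at 16 and 20 h and 752 ± 338 at 4 and 8 h. Probe sets 250971_at and 247323_at rose, with 283 ± 44.2 and 264 ± 113 at 16 and 20 h, against 1.27 ± 0.43 and 3.25 ± 0.53 at 4 and 8 h. The results that follow cover the named genes only. Of the probe sets that passed, 617 stand for 1 named gene (612 genes), and most of these have a locus code and no symbol.

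The genes that rose most from a level above the Bacillus controls included a cytochrome P450, an auxin response repressor and 8 genes known here by locus code. CYP71B26 (AT3G26290), a cytochrome P450 of the CYP71 family, had 462 and 367 at 16 h and 313 and 343 at 20 h, against 24.2 and 14.1 at 4 h and 15.9 and 17.2 at 8 h. The lowest array at 16 and 20 h was thus more than 10 times the highest at 4 and 8 h. Its log2 difference was 4.11 ± 0.17 (SE; limma adjusted p = 3.8e-05), and it passed in each of the 8 fits that left out 1 array. AT1G73480 had 643 and 265 at 16 h and 511 and 262 at 20 h, against 33.7 and 23.7 at 4 h and 34.3 and 26.6 at 8 h. Replicate 2 was lower than replicate 1 at both 16 h and 20 h, and the difference was 3.56 ± 0.16 (adjusted p = 7.7e-05). AT2G23840 was the steadiest of these genes, with 279 and 292 at 16 h and 301 and 271 at 20 h, against 38 and 39.3 at 4 h and 41.1 and 45.4 at 8 h. It differed by 2.69 ± 0.10 (adjusted p = 2.5e-05). IAA29 (AT4G32280), an Aux/IAA repressor of auxin responses, had 176 and 156 at 16 h and 233 and 136 at 20 h, against 16.2 to 32.6 at 4 and 8 h. The difference was 2.85 ± 0.24 (adjusted p = 0.00132), with no overlap between the groups.

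AT5G42250, AT5G12050, AT5G59130 and AT4G16880 rose by 2.77, 2.62, 2.55 and 2.15, each with all 4 arrays of 16 and 20 h above all 4 of 4 and 8 h. These differences held in each of the 8 fits without 1 array. AT3G01060 rose by 2.18 ± 0.37, from a level that was itself uneven, with 958 and 759 at 16 h and 472 and 439 at 20 h, against 86.4 and 90.9 at 4 h and 219 and 189.6 at 8 h. Its values at 8 h were over 2 times those at 4 h. It passed in 7 of the 8 fits and missed without 4 h replicate 2 (adjusted p = 0.0554). AT5G35970 had 1305 and 1148 at 16 h and 717 and 457 at 20 h, against 37.6 and 56.2 at 4 h and 169 and 267 at 8 h. The difference of 3.02 ± 0.62 (adjusted p = 0.0308) passed in 2 of the 8 fits, with an adjusted p of up to 0.0875 without 4 h replicate 2.

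A further 3 genes rose from levels at or under those of the Bacillus controls, so that the size of their rise is not settled. GI (AT1G22770), the clock component, had 93.6 and 104 at 16 h and 712 and 602 at 20 h, against 22.7 and 6.5 at 4 h and 2.1 and 15.2 at 8 h. All 4 arrays of 16 and 20 h lay above all 4 of 4 and 8 h, and the 20 h values were over 5 times those at 16 h. The difference was 4.27 ± 0.78 (adjusted p = 0.0210). It was 2.60 and no longer passed when 40.1, the median of all values, was added in place of 4. GI passed in 4 of the 8 fits without 1 array, with an adjusted p of up to 0.0700 without 8 h replicate 1. AT1G13650 had 412 and 291 at 16 h and 70.6 and 69.1 at 20 h, against 1.5 and 7.8 at 4 h and 4.6 and 18.5 at 8 h. In contrast to GI, its 16 h values were over 4 times its 20 h values, and it passed in 5 of the 8 fits (adjusted p up to 0.0588, without 8 h replicate 1). THI2.2 (AT5G36910), a thionin gene for a small antimicrobial peptide, had 237 and 87.6 at 16 h and 109 and 34.8 at 20 h, against 5.4 and 15.6 at 4 h and 5.5 and 9.4 at 8 h. Its difference was 4.12 in series 1 and 1.88 in series 2, and it passed in 5 of the 8 fits (adjusted p up to 0.0617, without 8 h replicate 1).

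**Figure D2:**
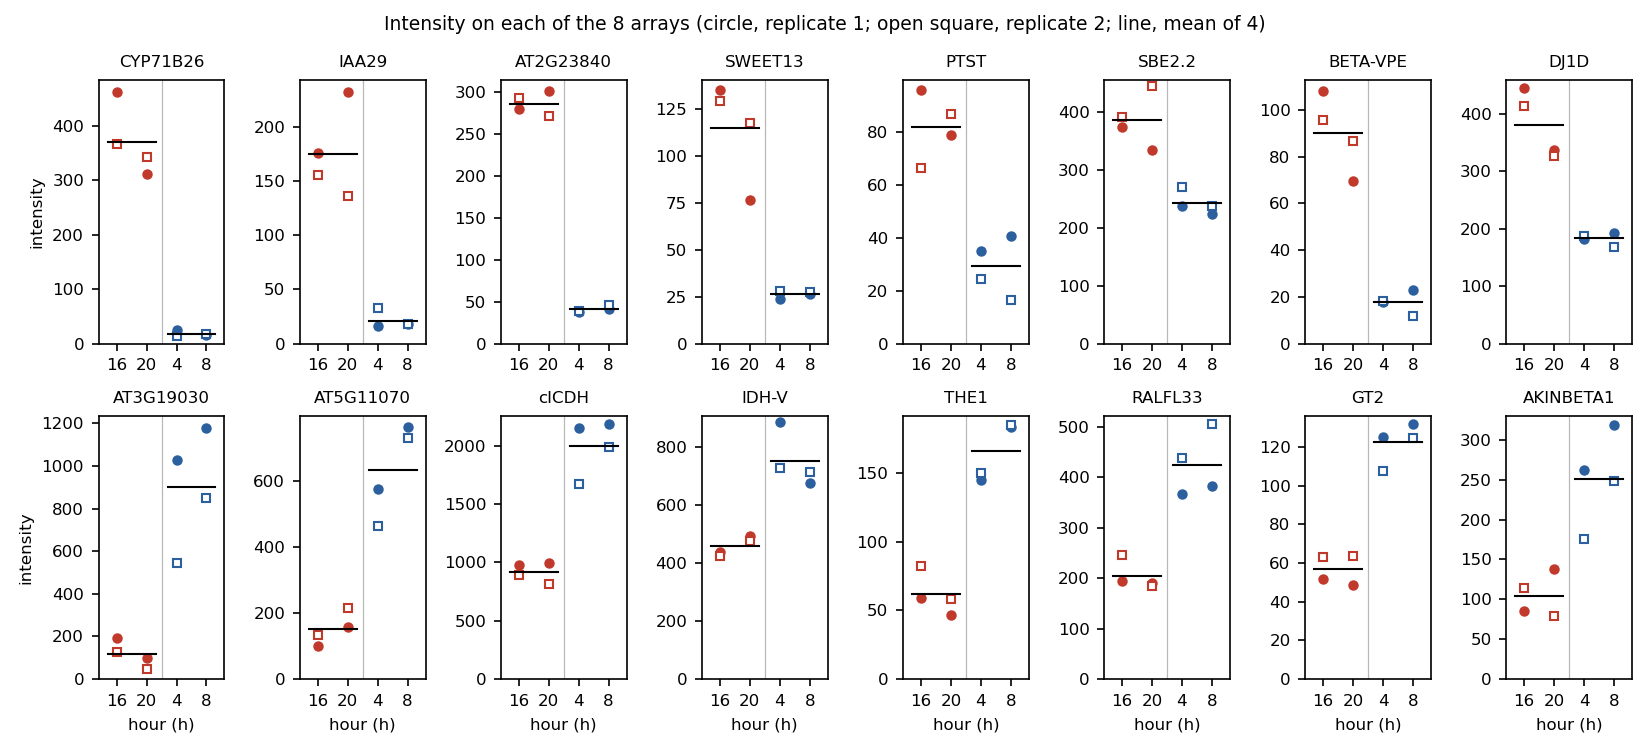
Intensity of 16 genes on each of the 8 arrays, with the 2 hours of 16 and 20 h (red) left of 4 and 8 h (blue); circles are replicate 1, open squares replicate 2 and lines the mean of 4 arrays. The upper row shows genes that rose and the lower row genes that fell, and in all 16 the groups do not overlap.

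Of the 4 starch synthesis genes measured, among 17 listed, 3 passed as higher and none as lower at 16 and 20 h, against 2.44% of all probe sets. The median difference of the 4 was 0.95, beside 0.04 over all probe sets. PTST (AT5G39790), which brings a starch synthase to the starch granule, had 95.7 and 66.5 at 16 h and 79 and 86.7 at 20 h, against 35.1 and 24.4 at 4 h and 40.6 and 16.5 at 8 h. The difference was 1.43 ± 0.19 (adjusted p = 0.00800). APL3 (AT4G39210), a large subunit of ADP-glucose pyrophosphorylase, the enzyme that commits carbon to starch, had 158 and 193 at 16 h and 101 and 149 at 20 h, against 66.1 and 85.4 at 4 h and 48.1 and 65 at 8 h. Its groups did not overlap and it rose by 1.13 ± 0.18 (adjusted p = 0.0144), but it passed in 6 of the 8 fits, with an adjusted p of up to 0.0559 without 8 h replicate 1. SBE2.2 (AT5G03650), a branching enzyme, had 373 and 391 at 16 h and 334 and 444 at 20 h, against 238 and 270.2 at 4 h and 224 and 238 at 8 h. Its rise was smaller, at 0.66 ± 0.10 (adjusted p = 0.0106), and like PTST it held without any 1 array. APL4 (AT2G21590), the other large subunit measured, stood at or under the Bacillus level at 4 and 8 h and differed by 0.78 ± 0.23 (adjusted p = 0.0975).

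The 4 starch breakdown genes measured, of 24 listed, gave no call, with a median difference of 0.17. For 2 of them the pooled groups hide opposite hours. PWD (AT5G26570), which phosphorylates starch so that it can be broken down, had 175 and 143 at 16 h and 717 and 766 at 20 h, against 452 and 531 at 4 h and 434 and 475 at 8 h. Its 16 h values were the lowest of the 8 arrays and its 20 h values the highest, and the pooled difference was -0.45 ± 0.55 (adjusted p = 0.712). DPE1 (AT5G64860), a disproportionating enzyme that handles the malto-oligosaccharides left from starch, had the same order, with 49.8 and 56.8 at 16 h and 233 and 286 at 20 h, against 102 and 156 at 4 h and 81.4 and 103 at 8 h. Its pooled difference was 0.13 ± 0.56 (adjusted p = 0.924). AMY1, an amylase gene, and AT4G24450, a relative of the glucan dikinases, differed by 0.21 and 0.32 (adjusted p = 0.535 and 0.327).

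Among the 12 measured genes of sucrose synthesis and sugar transport, of 24 listed, 2 were higher, beside 2.44% of all probe sets, and none was lower (median 0.02). SWEET13 (AT5G50800), one of the sucrose exporters that load the phloem, had 135 and 129.5 at 16 h and 76.7 and 118 at 20 h, against 23.5 and 28.1 at 4 h and 26.4 and 27.7 at 8 h. Its groups did not overlap, and it rose by 1.94 ± 0.18 (adjusted p = 0.00188) in each of the 8 fits. TMT2 (AT4G35300), a sugar transporter of the vacuole, had 161 and 95.9 at 16 h and 205 and 226 at 20 h, against 47 and 52.5 at 4 h and 82.6 and 65.2 at 8 h. The rise of 1.38 ± 0.28 (adjusted p = 0.0288) passed in 1 of the 8 fits, with an adjusted p of up to 0.0843 without 4 h replicate 2. SWEET11 (AT3G48740), another sucrose exporter of phloem loading as far as known, differed by -0.34 ± 0.14 (adjusted p = 0.224). SWEET2 (AT3G14770), a vacuolar sugar transporter, had 228 and 175 at 16 h and 61.7 and 51.1 at 20 h, against 238 and 127 at 4 h and 360.5 and 218 at 8 h. Its 16 h values fell within the range of 4 and 8 h and its 20 h values below it, giving -1.02 ± 0.48 (adjusted p = 0.278). SPS4F (AT4G10120), a sucrose-phosphate synthase, differed by -0.04 ± 0.23 (adjusted p = 0.944) and the sucrose phosphatase gene SPP2 (AT2G35840) by 0.09 ± 0.22 (adjusted p = 0.869). SWEET13 was the 1 called gene of 15 measured whose symbol begins with SWEET, a count that takes in SWEETIE.

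Of the 5 measured genes of the list on darkness and low sugar, 2 were lower, against 2.95% of all probe sets, and none was higher (median -0.36). AKINBETA1 (AT5G21170), a regulatory subunit of the SnRK1 energy kinase, had 85.5 and 114 at 16 h and 137 and 79.1 at 20 h, against 262 and 176 at 4 h and 318 and 249 at 8 h. It fell by 1.24 ± 0.20 (adjusted p = 0.0136), with no overlap, and passed in 6 of the 8 fits (adjusted p up to 0.0552, without 8 h replicate 1). ATG8E (AT2G45170), a ubiquitin-like protein of the autophagosome membrane, had 119 and 264 at 16 h and 140.2 and 164 at 20 h, against 338 and 356 at 4 h and 314 and 311 at 8 h. It fell by 0.99 ± 0.19 (adjusted p = 0.0245), in 2 of the 8 fits (adjusted p up to 0.0834, without 8 h replicate 1). The leucine breakdown genes MCCA (AT1G03090), MCCB (AT4G34030) and IVD (AT3G45300) differed by -0.36, 0.11 and -0.07, with adjusted p of 0.381, 0.727 and 0.838. ATG8E was also the 1 called gene of the 13 autophagy genes measured, whose median was -0.15. ATG8D (AT2G05630) came next in size, with 53.7 and 68.7 at 16 h and 138 and 142 at 20 h, against 161 and 191 at 4 h and 173 and 171 at 8 h, and a difference of -0.88 ± 0.30 (adjusted p = 0.142). Its 16 h values were lower than those at 20 h, and all 4 lay below the values of 4 and 8 h.

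Isocitrate dehydrogenases, which turn isocitrate into the carbon skeleton used to assimilate nitrogen, were among the genes that fell. They were singled out after their values were seen. Of 6 such genes found by symbol, 3 were lower, beside 2.95% of all probe sets, and none higher, with a median difference of -0.59. cICDH (AT1G65930), the cytosolic NADP-dependent enzyme, had 974 and 889.9 at 16 h and 993 and 814 at 20 h, against 2149 and 1673 at 4 h and 2189 and 1986 at 8 h. It fell by 1.12 ± 0.11 (adjusted p = 0.00213), and its groups lay far apart. IDH-V (AT5G03290), a catalytic subunit of the mitochondrial NAD-dependent enzyme, had 439 and 425 at 16 h and 495 and 477 at 20 h, against 887 and 730.1 at 4 h and 676 and 715 at 8 h. It fell by 0.70 ± 0.11 (adjusted p = 0.0145), and both genes passed in all 8 fits. IDH-IV (AT1G32480) was called lower too, but its values of 2.5 to 6.9 at 16 and 20 h and 10.5 to 16.7 at 4 and 8 h lay mostly within the Bacillus range, and it passed in 3 of the 8 fits.

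Auxin and growth genes moved in both directions. In the list of auxin and brassinosteroid response, 2 of the 3 measured genes, of 20 listed, were higher, beside 2.44% of all probe sets (median 2.07). Besides IAA29 this was GH3.3 (AT2G23170), which joins hormones to amino acids, with 12.8 and 48.2 at 16 h and 10.3 and 44.4 at 20 h, against 1 and 12.2 at 4 h and 1 and 0.8 at 8 h. The 4 and 8 h values and the replicate 1 values of 16 and 20 h lay within the Bacillus range, so the size of the difference, 2.07 ± 0.37 (adjusted p = 0.0198), is not settled. GH3.3 did not pass without the replicate block (adjusted p = 0.0748), and it passed in 4 of the 8 fits (adjusted p up to 0.0600, without 8 h replicate 1). GH3.5 (AT4G27260) differed by 0.25 ± 0.25 (adjusted p = 0.644). Other genes of hormone action that carry a symbol and passed, named after their values were seen, were HAT2 (AT5G47370), an auxin-induced homeodomain factor (0.82 ± 0.16), and BIM1 (AT5G08130), a brassinosteroid signalling factor (0.70 ± 0.15). IAA18 (AT1G51950), another Aux/IAA repressor, was lower, at -0.52 ± 0.11. These 3 were called in 3, 1 and 0 of the 8 fits without 1 array, with an adjusted p of up to 0.0705, 0.114 and 0.125. RR16 (AT2G40670), a cytokinin response regulator, fell by 1.13 ± 0.21 with groups that overlapped, since its replicate 2 values were above its replicate 1 values at every hour. The values were 50.2 and 113 at 16 h and 96.6 and 165 at 20 h, against 133 and 349 at 4 h and 159 and 312 at 8 h, and RR16 passed in 3 of the 8 fits and not without the block (adjusted p = 0.169).

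In the list of cell wall and leaf growth genes, 1 of 8 measured was higher and 1 lower (median -0.01), beside 2.44% and 2.95% of all probe sets. GH9C2 (AT1G64390), an endoglucanase, had 779 and 372 at 16 h and 609.8 and 456 at 20 h, against 291 and 310.4 at 4 h and 239 and 223 at 8 h, and rose by 1.00 ± 0.19 (adjusted p = 0.0259) in 2 of the 8 fits (adjusted p up to 0.0802, without 8 h replicate 2). EXO (AT4G08950), a gene that promotes leaf growth, had 41.2 and 71.7 at 16 h and 5.7 and 22.2 at 20 h, against 120.0 and 216 at 4 h and 77.7 and 189.9 at 8 h. It fell by 2.24 ± 0.49 (adjusted p = 0.0386), in 2 of the 8 fits (adjusted p up to 0.113, without 4 h replicate 1), and not without the block (adjusted p = 0.0713). The expansin gene EXPA8 (AT2G40610) differed by 0.69 ± 0.23 (adjusted p = 0.129) and EXPA4 (AT2G39700) by 0.15 ± 0.16 (adjusted p = 0.649). Other wall-related genes were named after their values were seen. THE1 (AT5G54380), a receptor kinase that senses the state of the wall, had 58.8 and 82.4 at 16 h and 46.8 and 58.5 at 20 h, against 145 and 149.7 at 4 h and 184 and 185 at 8 h. It fell by 1.39 ± 0.16 (adjusted p = 0.00477) and held in each of the 8 fits. RALFL33 (AT4G15800), a secreted peptide of the RALF family, fell by 1.04 ± 0.12 (adjusted p = 0.00399), with 194 and 246 at 16 h and 191 and 184 at 20 h, against 366 and 438 at 4 h and 383 and 506 at 8 h. It held in each of the 8 fits as well. RALFL32 fell too, by 0.85, in 1 of the 8 fits, and the other 9 of 11 RALF-like genes gave no call. TBL45 (AT2G30010), of a family that acetylates wall polymers, fell by 1.18 ± 0.17 (adjusted p = 0.0100; 0.0855 without the block). EXPB1 (AT2G20750), a beta-expansin, rose by 1.73 ± 0.33 (adjusted p = 0.0255; called in 4 of the 8 fits), by 2.34 in series 1 and 1.12 in series 2, and was the 1 called gene of 18 expansin and expansin-like genes.

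The genes that fell most from a level above the Bacillus controls, beside EXO, are known here by locus code. AT3G19030 had 195 and 127 at 16 h and 98.8 and 49.3 at 20 h, against 1028 and 547 at 4 h and 1180.0 and 849 at 8 h. It fell by 2.99 ± 0.31 (adjusted p = 0.00294), with the lowest array at 4 and 8 h over 2 times the highest at 16 and 20 h. AT5G11070 had 100.1 and 133 at 16 h and 157 and 214 at 20 h, against 575 and 462 at 4 h and 763 and 728 at 8 h, and fell by 2.06 ± 0.25 (adjusted p = 0.00502). AT1G30250 had 106 and 21.8 at 16 h and 77.4 and 67.4 at 20 h, against 526 and 141 at 4 h and 456 and 252 at 8 h. It fell by 2.28 ± 0.32 (adjusted p = 0.00890), and its replicate 2 values were lower than those of replicate 1 at every hour. AT5G19120, AT1G22890 and AT1G17090 fell too, with differences of -1.67, -1.64 and -1.61, and like the genes before them passed in each of the 8 fits. AT3G15630 and AT5G62900 had differences of -2.37 ± 0.42 and -1.52 ± 0.27, and each passed in 3 of the 8 fits, with an adjusted p of up to 0.0679 without 8 h replicate 2 and 0.0708 without 8 h replicate 1. AT1G49200 had 28.8 and 43.6 at 16 h and 15.9 and 8 at 20 h, against 66.6 and 95.5 at 4 h and 367 and 332 at 8 h. Its 8 h values were over 3 times its 4 h values, and the fall of 2.80 ± 0.64 (adjusted p = 0.0451) passed in 1 of the 8 fits (adjusted p up to 0.124, without 8 h replicate 2).

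The other listed clock genes that were measured gave no call. Of the 3 evening genes measured, of 17 listed, GI was the 1 that passed, as higher, beside 2.44% of all probe sets. COR27 (AT5G42900) and COR28 (AT4G33980), repressors that link the clock with cold and light responses, had opposite values at the pooled hours. COR27 had 1.4 and 0.9 at 16 h and 215 and 212 at 20 h, against 144 and 149 at 4 h and 105 and 106 at 8 h. Its 16 h values lay within the Bacillus range and its 20 h values above all others, and the pooled difference was -1.94 ± 1.34 (adjusted p = 0.469). COR28 had 0.6 and 1 at 16 h and 162 and 246 at 20 h, against 64.3 and 89.4 at 4 h and 67.8 and 71.6 at 8 h, in the same order, with -1.30 ± 1.34 (adjusted p = 0.652). RVE6 (AT5G52660), a Myb-like factor and the 1 morning gene measured of 11 listed, differed by 0.40 ± 0.17 (adjusted p = 0.238). In the list on light signalling none of 3 measured genes passed. AFR (AT2G24540), an F-box protein gene of far-red responses, had 128 and 146 at 16 h and 29.4 and 24.4 at 20 h, against 20.3 and 20.8 at 4 h and 76.5 and 112 at 8 h, high at 16 h and 8 h and low at 20 h and 4 h. HYH (AT3G17609), a light-regulated bZIP factor, showed the same alternation, with 91.6 and 100.0 at 16 h and 10.7 and 29.3 at 20 h, against 39.6 and 38.9 at 4 h and 99 and 104 at 8 h. None of the 5 cold and abscisic acid genes passed either (median 1.16). COR15B (AT2G42530), a chloroplast protein of the cold response, had 424 and 177 at 16 h and 1892 and 1750.2 at 20 h, against 286 and 312 at 4 h and 192 and 81.6 at 8 h, high at 20 h alone, and differed by 1.85 ± 0.77 (adjusted p = 0.221). COR15A (AT2G42540) differed by 1.63 ± 0.45 (adjusted p = 0.0783).

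**Figure D3:**
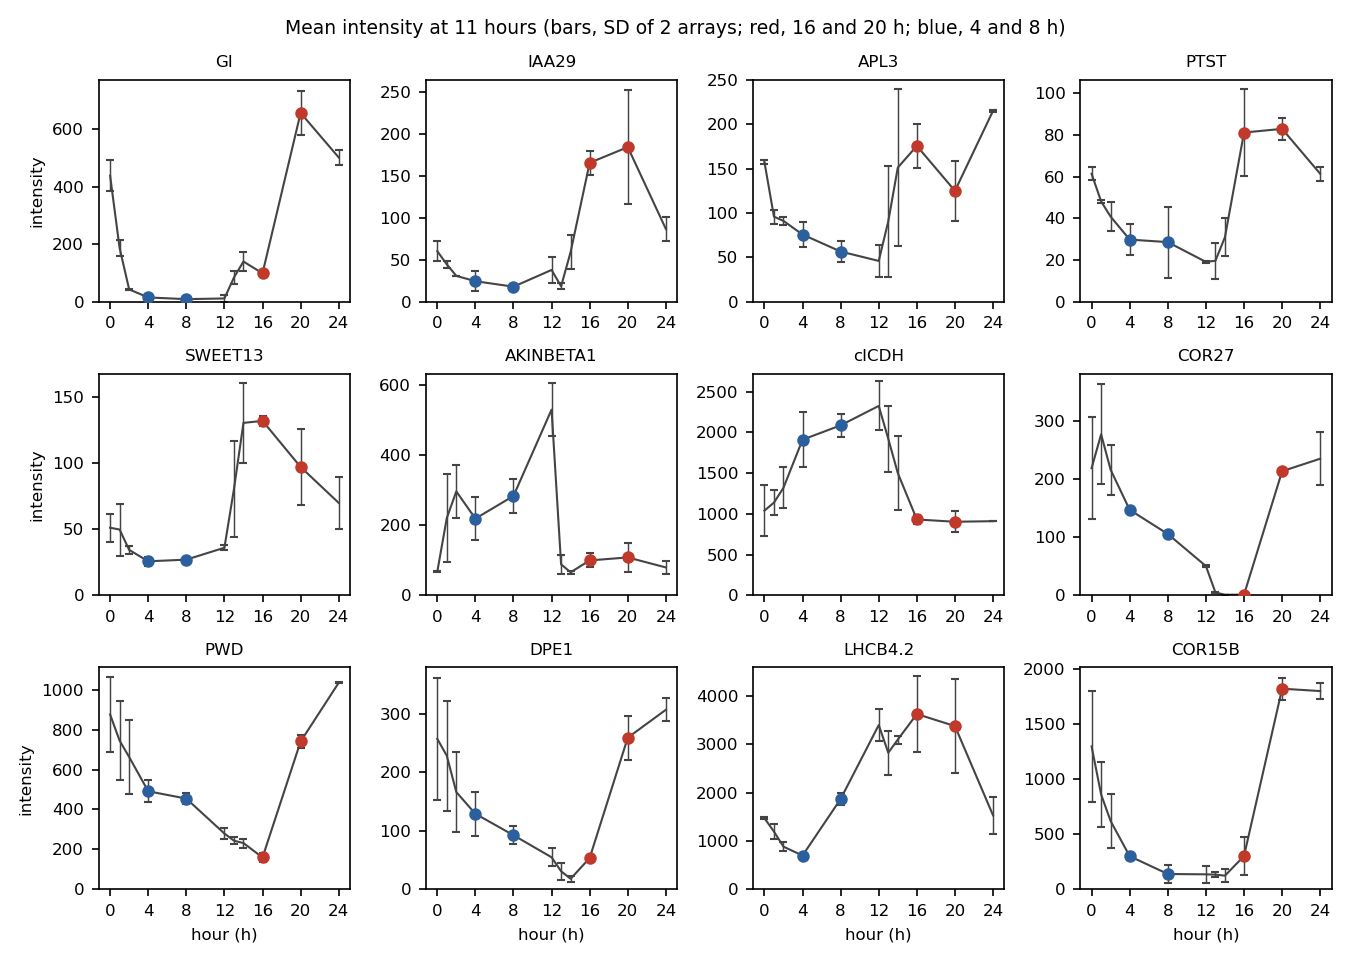
Mean intensity of 12 genes at 11 hours, with bars for the SD of 2 arrays, red points for 16 and 20 h and blue points for 4 and 8 h. IAA29, PTST, SWEET13, AKINBETA1 and cICDH keep 16 and 20 h on one side of 4 and 8 h. COR27, PWD and DPE1 are low at 16 h and high at 20 h, while COR15B is high at 20 h alone among the coloured points.

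The listed photosynthesis genes gave no call. None of 3 antenna genes, 4 photosystem and electron transport genes, 4 Calvin cycle genes, 3 photorespiration genes and 6 chlorophyll and carotenoid genes passed. Their medians were 0.49, 0.51, 0.03, -0.04 and 0.11. LHCB4.2 (AT3G08940), an antenna protein of photosystem II, came nearest, with 4180.0 and 3077 at 16 h and 4072 and 2685 at 20 h, against 694 and 696 at 4 h and 1776 and 1959.8 at 8 h. Its groups did not overlap and its difference was 1.59 ± 0.38 (adjusted p = 0.0517; 0.0483 without the replicate block). LHCB4.1 (AT5G01530) and LHCB4.3 (AT2G40100), of the same subunit family, differed by 0.49 ± 0.19 and -0.54 ± 0.13 (adjusted p = 0.199 and 0.0578). The photosystem I subunit gene PSAN (AT5G64040) had 3430.0 and 2389 at 16 h and 3278 and 2266 at 20 h, against 1623 and 1678 at 4 h and 1687 and 2205 at 8 h. The groups did not overlap, and the difference of 0.65 ± 0.19 (adjusted p = 0.0895) was 1.02 in series 1 and 0.27 in series 2. RCA (AT2G39730), the activase of Rubisco, differed by 0.10 ± 0.19 (adjusted p = 0.824), with 0.42 in series 1 and -0.22 in series 2. psbT, a photosystem II gene of the chloroplast genome that is on none of these lists, passed as higher (0.57 ± 0.11, adjusted p = 0.0271) with overlapping groups, and not without the block (adjusted p = 0.232). HEME2 (AT2G40490), an enzyme of tetrapyrrole synthesis with a symbol but on no list, rose by 0.49 ± 0.11 (adjusted p = 0.0400) in none of the 8 fits without 1 array.

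In all, 95 genes with a symbol passed, 45 as higher and 50 as lower, beside 2.44% and 2.95% of all probe sets. The groups did not overlap in 87 of them, a count largely fixed by the calls, which come from the same arrays. Over all probe sets, called or not, 5.7% lay wholly above and 5.72% wholly below. Of the 95, 20 passed in each of the 8 fits without 1 array, 57 in fewer than 4, and 64 without the replicate block. The ones named in this and the next paragraph were chosen from them after their values were seen. In the higher group, BETA-VPE (AT1G62710), a vacuolar processing protease, had 108 and 95.8 at 16 h and 69.6 and 86.8 at 20 h, against 11.7 to 23.1 at 4 and 8 h. It rose by 2.13 ± 0.21 (adjusted p = 0.00213). DJ1D (AT3G02720), of the DJ-1 family of glyoxalases, had 445 and 414 at 16 h and 337 and 327 at 20 h, against 182 and 188 at 4 h and 193 and 169 at 8 h, and rose by 1.03 ± 0.12 (adjusted p = 0.00502). TIL (AT5G58070), a lipocalin of temperature stress, rose by 1.35 ± 0.21 (adjusted p = 0.0126), and ATMPK8 (AT1G18150), a MAP kinase, by 0.83 ± 0.10 (adjusted p = 0.00577). These 4 genes passed in each of the 8 fits without 1 array. BCAT4 (AT3G19710), an aminotransferase at the start of methionine-derived glucosinolate synthesis, had 923 and 838 at 16 h and 837 and 728 at 20 h, against 428 and 277 at 4 h and 468 and 503 at 8 h. It rose by 1.01 ± 0.18 (adjusted p = 0.0180), in 5 of the 8 fits (adjusted p up to 0.0593, without 8 h replicate 1). Of 47 UDP-glycosyltransferase genes, 3 were higher, beside 2.44% of all probe sets, and none lower, and the median was 0.08. They were UGT84A3 (AT4G15490), which glucosylates sinapate (1.25 ± 0.22), UGT72E1 (AT3G50740), which glucosylates lignin precursors (1.13 ± 0.20), and UGT71C4 (AT1G07250; 0.51 ± 0.09). The 3 were called in 5, 3 and 3 of the 8 fits, and UGT72E1 and UGT71C4 did not pass without the block (adjusted p = 0.0702 and 0.0604). MSRB6 (AT4G04840), which repairs oxidised methionine, and VTC4 (AT3G02870), of ascorbate synthesis, rose by 1.34 ± 0.26 and 1.31 ± 0.29, in 2 and 1 of the 8 fits (adjusted p up to 0.0781 and 0.102).

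Among the 50 genes with a symbol that were lower, GT2 (AT1G76890), a trihelix DNA-binding factor, had 51.6 and 63.2 at 16 h and 48.9 and 63.6 at 20 h, against 125 and 108 at 4 h and 132 and 125 at 8 h. It fell by 1.06 ± 0.13 (adjusted p = 0.00518) in each of the 8 fits. GT-1 (AT1G13450), a factor of the same class, fell by 0.80 ± 0.12 (adjusted p = 0.0116) and missed without 8 h replicate 1 (adjusted p = 0.0510). Both measured genes for the small subunit of the splicing factor U2AF were lower, beside 2.95% of all probe sets. ATU2AF35A (AT1G27650) had 52.3 and 74.4 at 16 h and 47.8 and 60.4 at 20 h, against 86.4 and 114 at 4 h and 92.9 and 114 at 8 h, a fall of 0.76 ± 0.11 (adjusted p = 0.00989). U2AF35B (AT5G42820) fell by 0.72 ± 0.14 (adjusted p = 0.0265; 0.0669 without the block) and passed in 2 of the 8 fits, while ATU2AF35A passed in all 8. Of 4 bHLH genes with that symbol 2 were lower, beside 2.95% of all probe sets, and bHLH genes under other symbols were not counted. The 2 were bHLH121 (AT3G19860; -1.01 ± 0.19) and bHLH104 (AT4G14410; -0.62 ± 0.10), both regulators of iron uptake. bHLH104 passed in 7 of the 8 fits and bHLH121 in 4 (adjusted p up to 0.0552 and 0.0782, without 8 h replicate 1). HTB2 (AT5G22880), a histone H2B gene, had 52.8 and 38.5 at 16 h and 41.4 and 41.4 at 20 h, against 91 and 117 at 4 h and 76.9 and 87.1 at 8 h. It fell by 1.02 ± 0.16 (adjusted p = 0.0140) in each of the 8 fits. ASF1B (AT5G38110), a histone chaperone, fell by 0.90 ± 0.15 (adjusted p = 0.0167; 0.0883 without the block), in 6 of the 8 fits. TOPP7 (AT4G11240), a catalytic subunit of a type 1 protein phosphatase, fell by 1.07 ± 0.12 (adjusted p = 0.00462) in each of the 8 fits. Of 3 glyoxalase 2 genes 2 were lower, beside 2.95% of all probe sets. GLX2-5 (AT2G31350) fell by 0.80 ± 0.13 (adjusted p = 0.0151) and GLX2-1 (AT2G43430) by 0.48 ± 0.10 (adjusted p = 0.0282). They passed in 7 and 1 of the 8 fits (adjusted p up to 0.0605 and 0.0979, without 8 h replicate 1). PUB23 (AT2G35930), a ubiquitin ligase that dampens immune responses, fell by 1.66 ± 0.30 (adjusted p = 0.0210) to values of 3.5 to 18.7, mostly in the Bacillus range, against 23.6 to 40 at 4 and 8 h. PUB23 passed in 3 of the 8 fits (adjusted p up to 0.0665, without 8 h replicate 1).

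Among the remaining lists, 1 of 4 reference genes was called, as lower, beside 2.95% of all probe sets. TIP41L (AT4G34270), often used to normalise, fell by 0.62 ± 0.13 (adjusted p = 0.0373), with 76.1 and 98.5 at 16 h and 85.8 and 70.2 at 20 h, against 114 and 126 at 4 h and 144 and 130.2 at 8 h. It passed in 1 of the 8 fits (adjusted p up to 0.120, without 8 h replicate 1). UBC21 (AT5G25760), SAND (AT2G28390) and TUB6 (AT5G12250) differed by -0.16, 0.19 and 0.15 (adjusted p = 0.60, 0.338 and 0.671). None of the 5 antioxidant enzyme genes, 4 cytosolic ribosomal protein genes, 2 phenylpropanoid genes, 1 nitrogen and sulfur assimilation gene and 1 heat shock gene passed. HSC70-3 (AT3G09440), the heat shock gene, differed by 1.24 ± 0.40 (adjusted p = 0.125). Of the markers of other tissues, the summed level of the 5 green leaf markers measured ran from 14248 to 22795 at 16 and 20 h and from 12129 to 14878 at 4 and 8 h. The 2 root markers measured of 9 listed, PYK10 and EXPA7, summed to 20.7 to 33.7 at 16 and 20 h and 24 to 36.1 at 4 and 8 h, and no single value was above 23.5. FAMA, a guard cell gene and the 1 measured marker of guard cells and phloem, ran from 40.2 to 57.7 at 16 and 20 h and from 42 to 67.9 at 4 and 8 h. In whole leaves, fewer cells of a type and less RNA per cell cannot be told apart, and the part of cell types in these results was not tested.

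Over the rest of the day, the called probe sets were followed at the hours that the comparison did not use. The 554 higher ones had a median 0.97 above the mean of 4 and 8 h at 16 h and 0.90 at 20 h, values that the choice of the set fixes. At the other hours the median fell from 0 h (0.47) through 1 h (0.23) to 2 h (0.09), stood at 0.10 by 12 h, and then grew to 0.37 by 13 h and 0.70 by 14 h. By 24 h it was 0.54. The 671 lower ones mirrored this, with -0.55 at 0 h, -0.27 at 1 h, -0.39 at 13 h, -0.63 at 14 h and -0.56 at 24 h, and a value near 0 at 12 h. The mean of 4 and 8 h, from which all these values are counted, also took part in choosing the sets. The side of 0 on which the medians lie at the other hours is thus partly fixed by the choice. Peaks at 16 and 20 h in the higher set and at 4 and 8 h in the lower one are largely fixed by the choice of the sets. At the hours left, 67 of the higher probe sets peaked at 14 h (12.1%), against 8.27% of the probe sets that did not pass. Of the lower ones, 225 peaked at 12 h (33.5%), against 13.3% of those that did not pass. The choice left no lower probe set with a peak at 16 or 20 h, against 6.06% and 13.4% of those that did not pass. No higher probe set peaked at 4 or 8 h, so the shares at the hours left are partly fixed as well. IAA29 had 37.9 ± 15.6 at 12 h, 18.4 ± 3.75 at 13 h, 59.3 ± 20.1 at 14 h, 166 ± 14 at 16 h, 184 ± 68.2 at 20 h and 86.8 ± 14.6 at 24 h (SD, n = 2). cICDH had 1040.2 ± 309 at 0 h, 2325 ± 301 at 12 h, 1501 ± 449.9 at 14 h and 932 ± 59.3 at 16 h. AKINBETA1 had 530.0 ± 75.2 at 12 h and 88.5 ± 28.1 at 13 h.

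**Figure D4:**
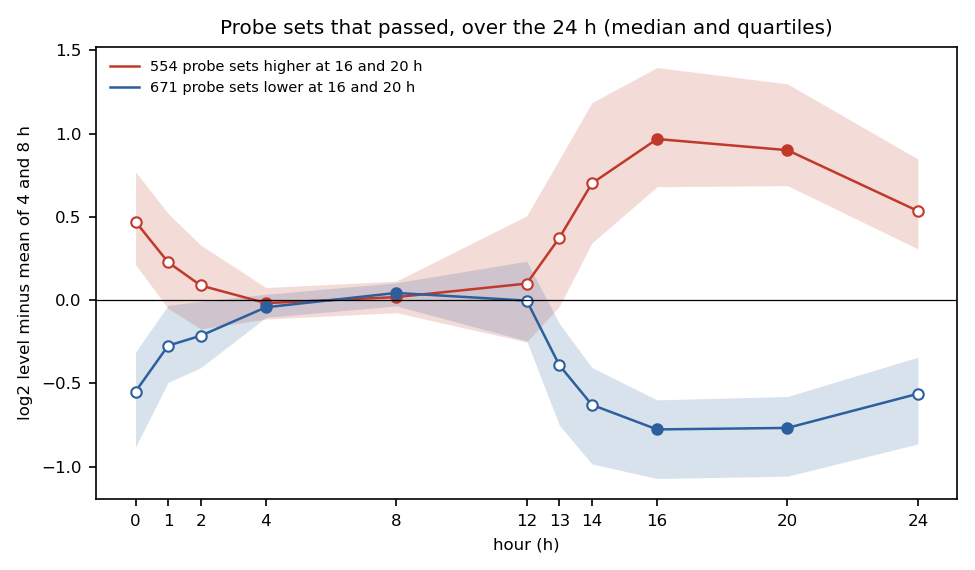
Median (line) and quartiles (shading) of the log2 level minus the mean of 4 and 8 h, for the 554 probe sets that passed as higher (red) and the 671 as lower (blue) at 16 and 20 h. Filled points are the hours that chose the sets and open points the others. The mean of 4 and 8 h took part in the choice, so the side of 0 is partly fixed at the open points too. At 12 h the medians are 0.10 and near 0, and at 0 h 0.47 and -0.55.

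The same contrast was asked of arrays that the comparison did not use, those of 13 and 14 h against those of 1 and 2 h. There 1291 probe sets were higher (5.68%) and 1518 lower (6.67%) of the 22746. Of the 554 higher at 16 and 20 h, 168 were also higher at 13 and 14 h, which is 30.3% of these and 13.0% of the 1291. A further 19 were lower there and 367 did not pass. Of the 671 lower ones, 153 were lower at 13 and 14 h, 22.8% of these and 10.1% of the 1518, while 7 were higher and 511 did not pass. The median difference at the earlier hours was 0.35 for the higher set and -0.32 for the lower one, beside -0.01 over all probe sets. AT5G35970, AT1G73480, AT3G01060 and SWEET13 were among those that passed at both times. SWEET13 had 54.6 and 106 at 13 h and 109 and 152 at 14 h, against 35.9 and 63.8 at 1 h and 32.5 and 36.4 at 2 h, a difference of 1.21 ± 0.26 (adjusted p = 0.0190). AKINBETA1, with -1.64 ± 0.23 (adjusted p = 0.00265), and AT5G11070, with -2.23 ± 0.18 (adjusted p = 0.00022), were lower at both times. None of the starch synthesis genes passed at the earlier hours, with -0.78 for PTST, 0.16 for APL3 and -0.12 for SBE2.2 (adjusted p = 0.0593, 0.795 and 0.667). LHCB4.2 passed at 13 and 14 h, with 1.53 ± 0.16 (adjusted p = 0.00075), as did PSAN (0.71 ± 0.09, adjusted p = 0.00145).

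Whether the 2 contrasts differed was tested over the 16 arrays, as the difference at 16 and 20 h against 4 and 8 h minus that at 13 and 14 h against 1 and 2 h. This passed for 595 probe sets as positive (2.62%) and 602 as negative (2.65%), which makes 5.26% together. With equal array medians 503 were positive and 795 negative. IAA29 had 15.7 and 21 at 13 h and 45.1 and 73.5 at 14 h, against 47.7 and 41.3 at 1 h and 30.7 and 30.8 at 2 h. It thus showed no call at the earlier hours (-0.15 ± 0.42, adjusted p = 0.873), and the test of the difference gave 3.00 ± 0.50 (adjusted p = 0.00794). The same test gave 4.03 ± 1.02 for GI (adjusted p = 0.0346), 2.73 ± 0.60 for CYP71B26 (adjusted p = 0.0201), 2.21 ± 0.29 for PTST (adjusted p = 0.00313), 0.78 ± 0.17 for SBE2.2 (adjusted p = 0.0198) and 1.49 ± 0.38 for TMT2 (adjusted p = 0.0372). For APL3 it did not pass (adjusted p = 0.159). Of the genes that fell, cICDH had 2208 and 1636 at 13 h and 1819 and 1183 at 14 h, against 1245 and 1032 at 1 h and 1499 and 1143 at 2 h and a test value of -1.57 ± 0.17 (adjusted p = 0.00150). AT3G19030 had -1.85 ± 0.45 (adjusted p = 0.0298), THE1 -1.32 ± 0.36 (adjusted p = 0.0469) and AKINBETA1 0.39 ± 0.32 (adjusted p = 0.546).

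The largest positive values belonged to genes that were low at 13 and 14 h. AT1G56300 had 11.6 and 16.4 at 13 h and 2.6 and 9 at 14 h, against 192 and 289.9 at 1 h and 182 and 214 at 2 h. At the interior hours it had 27.4 and 24.6 at 16 h and 641 and 703 at 20 h, against 68.1 and 98.3 at 4 h and 24.1 and 37.3 at 8 h, so that 16 h lay below or near the values of 4 and 8 h and 20 h above all of them. The test of the difference gave 5.49 ± 1.28 (adjusted p = 0.0247). AT1G70820, AT4G30660, AT4G30650 and AT3G62550 had 5.09 ± 0.72, 4.86 ± 0.64, 4.55 ± 0.79 and 4.50 ± 0.94. Of these, AT1G70820 also passed as higher at 16 and 20 h, by 1.34 ± 0.20 (adjusted p = 0.0112). The most negative values belonged to genes that were high at 13 and 14 h and low at 20 h. HYH had 472 and 502 at 13 h and 251 and 288 at 14 h, against 21.2 and 31.9 at 1 h and 28.8 and 20.9 at 2 h, and its test value was -4.16 ± 0.74 (adjusted p = 0.00902). AT1G64500, AT1G68440, AT5G54130 and the pseudogene AT3G15310 had -5.19 ± 1.01, -4.84 ± 1.1, -4.17 ± 0.94 and -5.02 ± 1.05, and none of these 4 passed between 16 and 20 h and 4 and 8 h. AT1G56300, AT5G54130 and AT1G68440 lost this call without 8 h replicate 1, 8 h replicate 2 or 20 h replicate 2 (adjusted p = 0.0504 to 0.0578), and AT1G56300 also without 1 h replicate 1 (adjusted p = 0.0505). Where values lie under 15.8 the sizes depend on the pseudocount, as for AT1G64500 and AT1G68440 at 20 h.

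**Figure D5:**
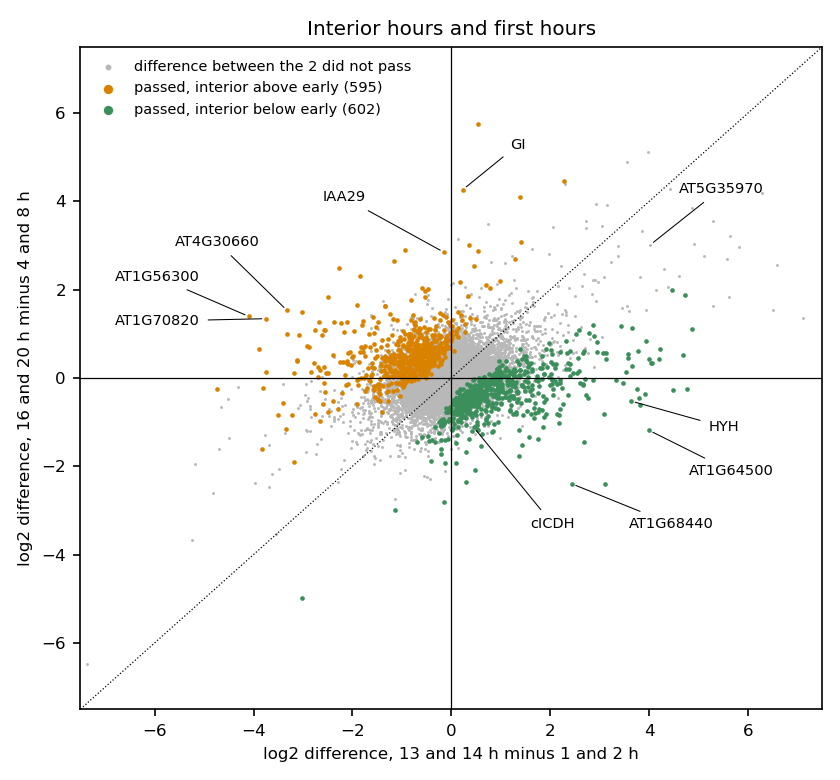
Each point is 1 of 22746 probe sets, with its log2 difference at 13 and 14 h minus 1 and 2 h on the horizontal axis and at 16 and 20 h minus 4 and 8 h on the vertical axis; the dotted line marks equal differences. Orange (595) and green (602) points passed the test of the difference between the 2, with IAA29 and GI near 0 on the horizontal axis and HYH and AT1G64500 far to the right.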

How the data were processed

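The deposited table holds intensity values per probe set, 1 column per array, which the authors had scaled to a trimmed mean (2% off each end) of 100 on every array. Their software is not given in the sources used. Of 22810 probe sets 64 are controls. The platform annotation names 1 gene for 13513 (13356 genes), several for 503 and none for 8730. Symbols came from the RefSeq table of assembly TAIR10.1, and no coordinates or sequences are printed, since no build is named. Genes with a locus code only are given no role unless a list holds them.

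Values were fitted as log2(intensity + 4) with limma 3.58.1 under R 4.3.3, using lmFit and a trended eBayes, two-sided, with Benjamini-Hochberg adjustment over all 22746 probe sets. The replicate series was a block, leaving 5 residual degrees of freedom, and 11 in the test over 16 arrays. Every adjusted p is from limma and sets a difference against the spread among these samples, drawn towards a trend over all probe sets. Arrays of the same hour enter it as independent. Same-numbered samples deviated together in all 6 pairs of hours (r = 0.260 to 0.357), a pairing given by the replicate numbers of the labels. On simulated data for this comparison, 68 of 100 probe sets changed by 1 on the log2 scale and 87 of 100 changed by 2 were recovered, with 11 false calls among 22746. The simulated noise was drawn for each array on its own, with no deviation shared by arrays of the same hour. Only probe sets with a mean above the median were changed. The rates on the real arrays, whose hours differ within a side, may thus be others. The number of arrays limits the precision.

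The text names the 10 greatest rises and the 10 greatest falls of probe sets with 1 gene that passed, did not overlap and lay above the Bacillus controls in both groups. Added were genes with a mean over 100 in one group and under the controls in the other, up to 5 in each direction of the test over 16 arrays, and members of 27 gene lists. The comparison, members and lists were chosen with earlier results of these data known. Alternatives were other pseudocounts, scalings, filters, weights, models of the hours, an actin covariate, and arrays left out.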

Additional observations from a re-analysis of the deposited data

Results flagged for a closer look

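Among 310 groups of 4 values tested (155 named genes, each at 16 and 20 h and at 4 and 8 h), 1 array stood far from the other 3 in 17 cases. Chance flags about 1 in 20 groups. At 16 and 20 h, 16 h replicate 2 was high for RALFL33 at 246.5 (nearest 193.9) and for EXGT-A3, an enzyme that cuts and joins xyloglucan, at 647.6 (nearest 406.1). Low at 16 h replicate 1 were LPA2, a photosystem II assembly factor, at 235.6 and MCCB at 140.2, while RPP0B, a ribosomal protein gene, was high there at 1892.8. The 20 h array of replicate 2 was low for MOB1-like at 225.4, AT5G19120 at 35.8 and GLX2-5 at 102.5. That array is the one with the higher background. At 4 and 8 h, 4 h replicate 2 was high for GH3.3 at 12.2, with the other 3 arrays at 0.8 to 1, and for IAA29 at 32.6 and NTMC2T6.1 at 40.7, and low for RVE6 at 43.9 and GT-1 at 79.3. AT5G42250 was low at 12.8 on 4 h replicate 1, where BIM1 was high at 78.9. On 8 h replicate 2, AT3G15630 was high at 457.2 and ALDH10A8, an aldehyde dehydrogenase, at 760.6 (nearest 600.6).

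For 10 genes the difference at 16 and 20 h against 4 and 8 h departed from that at 13 and 14 h against 1 and 2 h, by the test over 16 arrays. The values were 5.49 for AT1G56300, 5.09 for AT1G70820, 4.86 for AT4G30660, 4.55 for AT4G30650 and 4.50 for AT3G62550. They were -5.19 for AT1G64500, -5.02 for AT3G15310, -4.84 for AT1G68440, -4.17 for AT5G54130 and -4.16 for HYH, on the log2 scale. The part of the arrays and of the pooled hours in these values was not tested.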

How the results depend on the processing

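Among the named genes, no difference called in the main fit turned its sign under any alternative run. A further 21 without a call in the main fit did so in 56 values. The sign turned with quantile normalization for RCA (-0.12), PRK (-0.17), 2CPA (-0.14) and HPR1 (-0.085), with equal array medians for NTRC (-0.015), PRK (-0.036) and 2CPA (-0.019), with array weights for DPE1 (-0.17) and SPS4F (0.077) and with the actin covariate for PRK (-0.013). It turned without the 8 h and 16 h arrays for NTRC (-0.022), ATG8F (0.079), PWD (0.59), UBC21 (0.011), COR27 (0.53), RPL4D (-0.22), COR28 (1.35), HPR1 (-0.017) and MCCA (0.053). It turned within series 1 for RPL4D (-0.12), MCCB (-0.10), PYK10 (-0.044) and GLDT (0.10). It turned within series 2 for RCA (-0.22), NTRC (-0.12), CHLM (-0.14), SPS4F (0.029), PRK (-0.22), 2CPA (-0.25) and HPR1 (-0.14). With 1 array left out the difference ran across 0 for 2CPA (-0.043 to 0.11), AFR (-0.015 to 0.95), CHLM (-0.043 to 0.21), DPE1 (-0.32 to 0.61), HPR1 (-0.018 to 0.22), HYH (-1.0 to 0.081), NTRC (-0.079 to 0.10), PRK (-0.061 to 0.13), PWD (-0.90 to 0.053), PYK10 (-0.0098 to 0.23), RPL4D (-0.059 to 0.23), SPS4F (-0.19 to 0.13) and UGT78D1 (-0.61 to 0.19). Without the replicate block 404 probe sets were higher and 445 lower at 16 and 20 h, against 554 and 671 with it. With 1 mean per hour, so that the spread is that between replicates alone, 1082 were higher and 1264 lower over the 8 arrays and 1332 and 1467 over all 22. Without the trend in eBayes 440 were higher and 447 lower, and without the 8 h and 16 h arrays 84 and 17. Within series 1 alone, added after seeing the data, 4 were higher and 1 lower (1350 and 1457 at an unadjusted p under 0.05). Within series 2 alone, limma called 3 higher and 0 lower (1504 and 1311 unadjusted), with 2 arrays a side. Leaving out 1 array gave 191 to 508 higher and 186 to 553 lower. For 13 and 14 h against 1 and 2 h, it gave 851 to 1188 higher and 838 to 1211 lower, and for the test over 16 arrays 289 to 763 positive and 285 to 737 negative. That test had 374 positive and 401 negative values without the block. The difference in actin ratio (0.039 over all 8) ran from -0.17 to 0.32 with 1 array left out, and turned its sign in 4 of these 8 cases. Both pseudocounts (1 and 40.1), quantile normalization, equal array medians, the upper 60% of probe sets, array weights and the actin ratio as covariate kept the main counts within 1.5 times. With the actin covariate 390 were higher and 462 lower. For single genes with 1 array left out, 909 values kept their direction and side of the threshold, 26 turned their sign, 461 lost the call and 4 gained it. For other settings these numbers were 1722, 30, 444 and 25. LHCB4.2 gained the call without the block (adjusted p = 0.0483), and with 1 mean per hour over 8 arrays PWD, COR27, COR28, COR15A and COR15B gained it. A planned count of promoter motifs was not run, since sequences were not used here. Fewer arrays were tested where arrays were left out; the cause of the other changes was not tested.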

Other observations

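Other genes with a symbol that passed at 16 and 20 h against 4 and 8 h, chosen after their values were seen, are given here as values. TINY2 (AT5G11590), an AP2-type transcription factor gene, was higher by 0.95 ± 0.17 (adjusted p = 0.0201) with 66.6 and 39.3 at 16 h and 51 and 37.5 at 20 h, against 28.6 and 19.5 at 4 h and 20.9 and 22.2 at 8 h. TET3 (AT3G45600), a tetraspanin membrane protein gene, was higher by 1.00 ± 0.18 (adjusted p = 0.0206), and TET10 (AT1G63260) of the same family lower, at -0.75 ± 0.17 (adjusted p = 0.0479). The other 13 of 15 tetraspanin genes gave no call. OPCL1 (AT1G20510), which activates precursors of jasmonate, was higher by 0.87 ± 0.17 (adjusted p = 0.0279), and GSTU20 (AT1G78370), a glutathione transferase, by 0.86 ± 0.17 (adjusted p = 0.0253). WNK7 (AT1G49160), a protein kinase gene, had 13.1 and 18 at 16 h and 29.9 and 20.2 at 20 h, against 57.2 and 35.4 at 4 h and 59.7 and 39.5 at 8 h, and was lower by 1.11 ± 0.24 (adjusted p = 0.0356). FYD (AT3G12570) was lower by 0.67 ± 0.10 (adjusted p = 0.00992) in each of the 8 fits without 1 array. ASPGA1 (AT5G08100), an asparaginase, was lower by 0.63 ± 0.13 (adjusted p = 0.0291). TINY2 passed in 3 of the 8 fits, TET3 in 4, TET10 in 1, OPCL1 in 2, GSTU20 in 3, WNK7 in 2 and ASPGA1 in 1. Of 21 genes whose symbol begins with CYP71, a count that takes in CYP71 and CYP718, 2 were higher and 1 was lower. The shares of all probe sets were 2.44% and 2.95%. Beside CYP71B26 the higher one was CYP71B25, with means of 12.35 at 16 h and 11.35 at 20 h, against 2.65 at 4 h and 4.2 at 8 h. These lie under the highest Bacillus value of 15.8, and CYP71B25 passed in 2 of the 8 fits. The lower one was CYP71B22 (AT3G26200), with 36.5 and 91.1 at 16 h and 50.2 and 116 at 20 h, against 79.6 and 259 at 4 h and 83.8 and 180.1 at 8 h. Its replicate 2 values were above those of replicate 1 at every hour, and it did not pass without the block (adjusted p = 0.314).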
